A study of Homo sapiens with 4 samples.

Results

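The 3′ UTRs described here carried 3 or more poly(A) site clusters (PACs) in the esophageal squamous cell carcinoma (ESCC) lines KYSE30 and TE-1. A gene was a member when at least 3 of its PACs lay in an annotated 3′ UTR on the gene's own strand and each of these exceeded a TPM of 5 in at least 1 of 4 libraries. TPM here is the tag count of a PAC scaled to the total tags of its library, with no length correction. Of 9141 protein-coding genes with at least 1 such PAC, 7110 had 1, 1640 had 2 and 391 had 3 or more. These 391 genes held 1327 of the 17627 PACs in the data, of which 1255 were above the minimum and 72 were not. The shares below are over the 1255. Membership had an arbitrary edge, since the PAC ranked 3 in its gene reached 5.00 TPM in the weakest member and 4.98 in the strongest gene outside, and 67 of the 391 genes had fewer than 3 PACs at a minimum of 6.

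PAS-seq, which reads the 3′ ends of polyadenylated RNA, was done on 4 libraries, 1 per condition in each line. Both are established human cell lines. One library of each line came from cells kept in 20 mM l-lactate over 24 h, and its control from cells given PBS. With 1 library per condition there was no replicate, so no difference between libraries could be tested. Intervals below on medians are order-statistic intervals over genes, and all others cover counting error only. No interval measures the spread between cultures. In each line the treatment cannot be told apart from any other difference between the pair of libraries. In such bulk RNA, fewer cells of a kind and less RNA per cell cannot be told apart either. The libraries held between 7174991 and 10393799 tags, and members took 5.27% to 5.63% of the listed TPM. A PAC missing from the table of a library was counted as 0, although the tables list only PACs above a minimum near 1 TPM. The study's methods also removed PACs made of a single site with TPM under 3, so an unlisted PAC may have had more than 1 TPM. Member PACs listed in only 1 library of a line had a median of 4.18 TPM there in KYSE30 and 3.92 in TE-1. The epithelial markers EPCAM, PERP and DSP were listed in all 4 libraries. They belong to a set of 10 markers taken for squamous epithelium, of which 6 were listed in at least 1 library. The summed 3′ UTR TPM of the set ranged from 632.9 to 1427, and EPCAM alone gave 563.1 in the KYSE30 control and 635.3 with l-lactate. Of its keratins, KRT6A was listed in KYSE30 only and KRT17 in TE-1 only. KRT5, KRT14, TP63 and SFN had no listed 3′ UTR PAC, and CDH1 reached 204 TPM or more in KYSE30 but at most 1.30 in TE-1. Fibroblast markers summed to at most 16.64 TPM, endothelial to at most 16.16 and leukocyte to at most 15.23.

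Cleavage and polyadenylation ends an mRNA downstream of a poly(A) signal, most often the hexamer AAUAAA, which is bound by the CPSF complex. A 3′ UTR with several sites can end early or late, and the choice sets how much sequence for microRNAs and RNA-binding proteins the mRNA carries. The CFIm complex, formed by NUDT21 with CPSF6 or CPSF7, binds UGUA upstream of many sites. In genes with 3 or more sites the most upstream is called proximal, the most downstream distal, and those in between middle.

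The number of PACs was 3 in 319 genes, 4 in 65 and 5 in 6. HAPSTR1, a nuclear protein of stress responses, had 8. In 299 genes all PACs lay in 1 unbroken 3′ UTR, and in 92 they lay in several 3′ UTR pieces of different transcripts. The sequences show how the signals of one gene differ from site to site. Each line gives the 30 bases of GRCh38 that end at the dominant site of a PAC, 5′ to 3′ as RNA, and capitals mark the best poly(A) signal hexamer in that stretch. NUDT21 and CPSF6 are shown because they encode CFIm subunits, HAPSTR1 for its number of sites, and HMGB1 for its usage. Where no letters are in capitals, the stretch held no AAUAAA or AUUAAA and none of 10 variants that differ from AAUAAA by 1 base.
NUDT21 cluster 1 (proximal), chr16:56432624-56432653, minus strand: caguguagAAUAAAugugguagaaaaguuu
NUDT21 cluster 2 (middle), chr16:56431678-56431707, minus strand: aaauuugggggAAUAAAaaauauuagagca
NUDT21 cluster 3 (distal), chr16:56429140-56429169, minus strand: uuuauugucauuucAAUAAAaaauauuuga
CPSF6 cluster 1 (proximal), chr12:69269911-69269940, plus strand: guaguguuguAAUAAAcuguuuaauggggc
CPSF6 cluster 2 (middle), chr12:69271502-69271531, plus strand: uacuaAUUAAAuccuuuauuuaccuuuuca
CPSF6 cluster 3 (distal), chr12:69274324-69274353, plus strand: ucuuguauugaaAAUAAAacaaacuuuuga
HAPSTR1 cluster 1 (proximal), chr16:9103506-9103535, plus strand: cugcaguguugauuagaauuuaucgcuuua
HAPSTR1 cluster 2 (middle), chr16:9105276-9105305, plus strand: uaccuucAAUAAAuuuauaauguagcacua
HAPSTR1 cluster 3 (middle), chr16:9106733-9106762, plus strand: ggaAUUAAAgagauaaacaugcaugugcua
HAPSTR1 cluster 4 (middle), chr16:9112072-9112101, plus strand: auuucAAUAAAaauucaguauuauaauuua
HAPSTR1 cluster 5 (middle), chr16:9113152-9113181, plus strand: guaaAAUAAAauuugggcugucaaaaugca
HAPSTR1 cluster 6 (middle), chr16:9117502-9117531, plus strand: gucaugcaauuaauACUAAAuauugaauca
HAPSTR1 cluster 7 (middle), chr16:9119048-9119077, plus strand: uuggcuucAUUAAAcuuuuagaaaacuuua
HAPSTR1 cluster 8 (distal), chr16:9119669-9119698, plus strand: aucauaaaaugAAUAAAaacaaaaaaacca
HMGB1 cluster 1 (proximal), chr13:30460895-30460924, minus strand: gcuucuaAGUAAAuacaauuuuuuuuauua
HMGB1 cluster 2 (middle), chr13:30459852-30459881, minus strand: acuAAUAAAcuaauaauugcagagguuuua
HMGB1 cluster 3 (distal), chr13:30458796-30458825, minus strand: aauuuucuuaaagugaaaucugaaaaauga

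All 3 sites of NUDT21 had AAUAAA, as did the proximal and distal sites of CPSF6, whose middle site had AUUAAA. HMGB1, a chromatin protein, had the variant AGUAAA at the proximal site, AAUAAA at the middle one and no hexamer at the distal one. The PACs of the 8-site gene HAPSTR1 lay in 2 pieces of 3′ UTR, with the first 5 in one piece and the last 3 in the other.

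AAUAAA was more frequent at distal sites than at the others. Within 50 nt upstream of the dominant site it was found at 51.2% of 391 proximal PACs (95% Wilson interval 46.2 to 56.1), 56.4% of 473 middle PACs (51.9 to 60.8) and 73.4% of 391 distal PACs (68.8 to 77.5). The distal interval did not overlap the other two. The same window placed 150 nt further upstream held AAUAAA at 2.05% to 4.02% of the member PACs. AUUAAA without AAUAAA was found at 19.9%, 21.8% and 16.9% of proximal, middle and distal PACs. A variant hexamer alone was found at 20.7%, 15.6% and 7.67%, and no hexamer at 8.18%, 6.13% and 2.05%. Genes with 2 PACs had AAUAAA at 54.7% of proximal and 72.6% of distal sites, and genes with 1 PAC at 71.5%, so the distal sites of members were close to the last sites of other genes. Of the 391 genes, 138 had AAUAAA at the distal but not the proximal site and 51 the reverse. It stood at every site in 81 genes and at no site in 23.

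UGUA in the 100 nt upstream was found at 52.2% of proximal PACs (47.2 to 57.1), 57.9% of middle PACs (53.4 to 62.3) and 61.6% of distal PACs (56.7 to 66.3). The proximal and distal intervals overlapped narrowly. Genes with 2 PACs had UGUA at 55.1% of proximal and 65% of distal sites, and genes with 1 PAC at 58.1%, so a higher distal share was not particular to members. Within 50 nt UGUA stood at 33.5%, 32.8% and 34.8% of proximal, middle and distal PACs of members. No window further upstream was counted for UGUA, a short motif. Member genes with UGUA at the distal but not the proximal site numbered 114, against 77 the other way. Few PACs were followed by a run of adenines in the genome, at which an oligo(dT) primer can anneal. At least 7 A in the next 10 bases, or 6 A in a row, stood after 23 of 1255 member PACs (1.83%), with 2.3% of proximal, 1.27% of middle and 2.05% of distal ones.

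**Figure D1:**
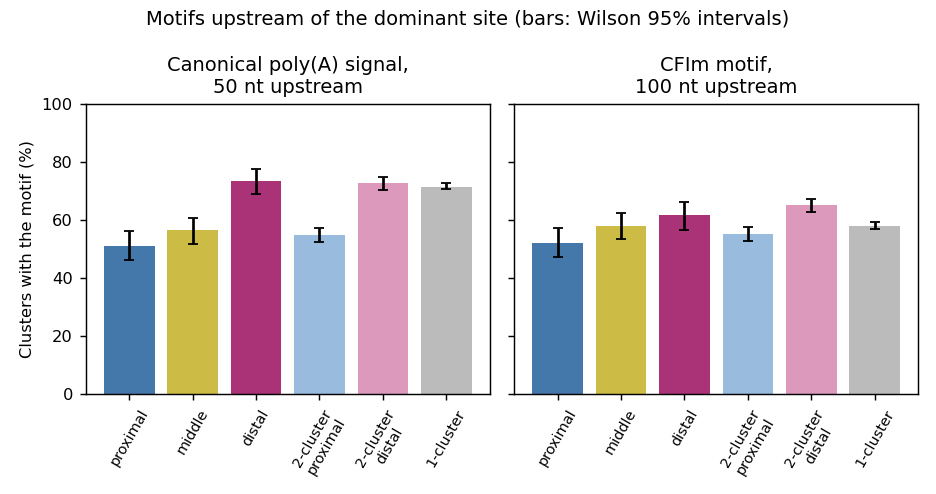
Share of PACs (%, y axis) with AAUAAA within 50 nt (left) or UGUA within 100 nt (right) upstream of the dominant site, for proximal, middle and distal PACs of genes with 3 or more PACs and for the PACs of genes with 2 or 1; bars carry 95% Wilson intervals. The canonical signal stood at 73.4% of distal PACs and at 51.2% of proximal ones, and UGUA at 61.6% and 52.2%.

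The spacing of the sites was set in part by the processing, because PACs within 500 nt of each other had been joined. Over 656 pairs of neighbouring PACs in unbroken 3′ UTRs the shortest distance between dominant sites was 502 nt. The median was 1238.5 nt, with quartiles of 824 and 2134 nt, and 36.4% of pairs were under 1000 nt apart. The first step, from proximal to first middle site, had a median of 1091 nt, and the last step, from last middle to distal site, 1547 nt. In genes with 2 PACs the median was 1520.5 nt and 27.2% of pairs were under 1000 nt. From proximal to distal site the 299 genes spanned a median of 3274 nt. The span ran from 1094 nt to 18983 nt in ARIH1, a ubiquitin ligase whose last step alone took 15911 nt. Sites under 500 nt apart could not be seen.

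Usage was spread over all 3 positions. Among genes with a summed TPM of at least 10, the median share of a gene's 3′ UTR TPM at the proximal PAC was 22.2% in the control and 24.3% in the l-lactate library of KYSE30, and 25.7% and 26.9% in those of TE-1 (374 to 376 genes each). The median distal share was 25.8% and 25.2% in KYSE30 and 21.8% and 22.7% in TE-1. The middle PACs together had medians of 28.1% and 28.8% in KYSE30 and 31.3% in both TE-1 libraries. The median intervals, such as 19.4 to 26.9 for the proximal share in the KYSE30 control and 21.2 to 31.2 in the TE-1 control, overlapped between the 4 libraries. They are taken over genes, which are largely the same in all libraries, so their overlap is no test of a difference between libraries. Pooled over genes, 23.7% to 25.9% of the members' TPM lay at distal sites. PABPC1 alone took 3.2% to 5.91% of the members' TPM and weighs most in those pooled shares.

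A single PAC still took over 50% of the TPM in most genes, from 71.8% of genes in the KYSE30 l-lactate library to 76.8% in the KYSE30 control. That leading PAC was proximal in 34.5% to 35.6% of genes, middle in 29.9% to 36% and distal in 29.1% to 35.5%. Among 357 genes with a TPM of at least 10 in all libraries, the proximal PAC held more than 50% in every library in 79 genes, the middle PACs together in 81 and the distal PAC in 64. At the other end, the distal share stayed under 5% in all 4 libraries in 26 genes, the proximal in 22 and the middle in 20. In genes with 4 or more PACs the median distal share was 11.5% to 16%, against 25.4% to 28.9% in genes with 3, where fewer PACs divide the total. The leading PAC had AAUAAA in 64.7% to 65.3% of genes and the other PACs in 57.3% to 58.4%.

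**Figure D2:**
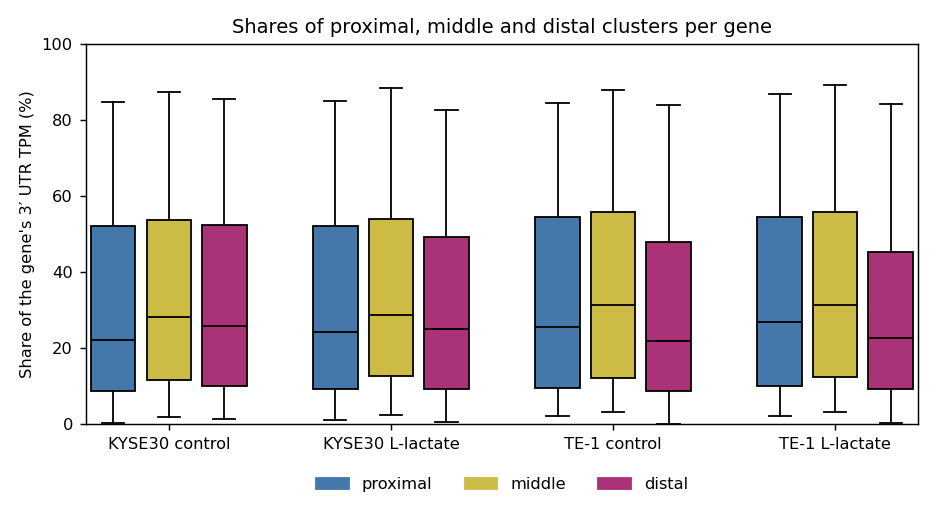
Share of each gene's 3′ UTR TPM (%, y axis) at its proximal, middle and distal PACs in the 4 libraries, for genes with a summed TPM of at least 10; boxes give the quartiles and median over 374 to 376 genes, and whiskers the 5th and 95th percentiles. The boxes overlap widely, with distal medians of 25.8% and 25.2% in KYSE30 and 21.8% and 22.7% in TE-1.

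The 4 members with the highest TPM summed over the libraries used 1 site or 2 for most of their TPM. PABPC1, the cytoplasmic poly(A)-binding protein, reached 3041, 2958, 1730 and 1623 summed TPM in the KYSE30 control, KYSE30 l-lactate, TE-1 control and TE-1 l-lactate libraries, and its middle PAC took 99.3% to 99.5%. PCBP2, an RNA-binding protein, had 97.2% to 98.5% at its middle PAC. EIF1, a translation initiation factor, had 76% to 82% at its proximal PAC and 0.564% to 0.803% at its distal one. Such genes have related copies in the genome, and how reads matching several copies were counted is not given in the sources used here.

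YWHAZ, a 14-3-3 adaptor protein, used its proximal and middle PACs. The proximal PAC had 445 TPM in the KYSE30 control, 571 with l-lactate, 303 in the TE-1 control and 426 with l-lactate. Its share was 24% (23.3 to 24.8), 31.7% (30.9 to 32.5), 32.1% (31.2 to 33) and 45.2% (44.1 to 46.3) in the same order. Both l-lactate libraries lay above the control of their line, and the middle share was lower in both, at 67.8% against 75.2% and 54.5% against 67.4%.

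The fixed gene lists differed in how many of their measured genes had 3 or more PACs, against 4.28% of all 9141. Of 21 factors of 3′ end processing 6 were members (28.6%, Wilson interval 13.8 to 50), namely CPSF2, CPSF6, NUDT21, PABPC1, PAPOLA and RBBP6. Of 22 14-3-3 and importin proteins 7 were members (31.8%, 16.4 to 52.7), 6 of them importins. Proteins that regulate mRNA through the 3′ UTR gave 7 of 32, cell cycle and signalling kinases 8 of 40, hnRNP and SR splicing proteins 6 of 34, and ubiquitin-conjugating enzymes 4 of 31. Solute carriers gave 1 of 168 (0.595%, 0.105 to 3.29) and ZNF zinc finger genes 3 of 236 (1.27%, 0.433 to 3.67). The intervals of the remaining lists held the share of all genes. These were RAB GTPases with 3 of 44 (2.35 to 18.2), proteasome subunits with 3 of 39 (2.65 to 20.3), cytosolic ribosomal proteins with 3 of 75 (1.37 to 11.1) and mitochondrial ones with 3 of 70 (1.47 to 11.9). Oxidative phosphorylation genes gave 2 of 83 (0.663 to 8.37), keratins 0 of 11 (0 to 25.9), and genes commonly cited as regulated by CFIm 0 of 8 (0 to 32.4). The members' median summed TPM was 64.5 to 70.4 by library, and the lists were not matched for level.

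In KYSE30, more members had a lower distal share in the l-lactate library than a higher one. Of 374 genes measured in both libraries, 24 had a distal share at least 10 percentage points lower (6.42%) and 3 at least 10 points higher (0.802%). Over all 1850 genes with 2 or more PACs the shares were 5.35% lower and 3.3% higher, so the members' lower calls were near that background and their higher calls below it. The median change of the distal share was -0.66 points, against -0.187 in genes with 2 PACs. A PAC listed in only 1 of the 2 libraries belonged to 7 of the 24 genes and 2 of the 3. Usage moved by at least 10 points, summed over the PACs that gained share, in 48 of the 374 genes (12.8%), against 9.78% of all genes compared. Genes with more PACs have more places for such movement.

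In TE-1, 23 of 374 members had a distal share at least 10 points lower with l-lactate (6.15%) and 16 at least 10 points higher (4.28%). Over 1851 genes the background was 4.59% lower and 6.16% higher. The median change was -0.176 points in members and 0.329 in genes with 2 PACs. Unlisted PACs touched 7 of the 23 and 4 of the 16. Usage moved in 72 of the 374 members (19.3%), against 12.5% of all genes compared. The distal share of members with UGUA upstream of the distal site differed by a median of -0.776 points with l-lactate in KYSE30 (233 genes) and -0.464 in TE-1 (230 genes), and without UGUA by -0.545 (141 genes) and 0.037 (144 genes).

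In unbroken 3′ UTRs the TPM-weighted position of the 3′ end lay a median of 27.1 nt nearer the proximal site in the KYSE30 l-lactate library than in its control, an interval of 15.3 to 46.5 nt over 287 genes, with 97 genes longer and 188 shorter. In TE-1 the median difference was -8.54 nt (-20.9 to 5.71), with 131 longer and 155 shorter. The intervals are order-statistic intervals over genes and do not measure the spread between cultures. This position was worked out for members only, so whether other genes differ in the same way is not shown.

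Of 357 members compared in both lines, 25 in KYSE30 and 35 in TE-1 differed in distal share by at least 10 points between control and l-lactate, and 9 did so in both, 36% of the 25 and 25.7% of the 35. These 9 were 2.52% of the members, against 36 of all 1688 genes with 2 or more PACs compared in both lines (2.13%), which include the members. The distal share was lower in both lines in 7 members (1.96%) and 16 of the 1688 genes (0.948%), and higher in both in 1 member (0.28%) and 17 of the 1688 (1.01%). The share was lower with l-lactate in both lines for CNOT6, ENAH, FEM1B, HS2ST1, NSD2, PGM2L1 and TMEM245. It was higher in both for NR2C1, an orphan nuclear receptor, and opposite in CPD, a carboxypeptidase. All PACs of CNOT6, ENAH and TMEM245 were listed in both libraries compared in each line, so leaving out unlisted PACs could not alter their differences. Those of PGM2L1 were unchanged as well. Over only the PACs listed in both libraries, the calls of FEM1B, NR2C1 and CPD were lost in both lines, as was that of NSD2 in KYSE30. In NR2C1 and CPD the distal PAC itself was left out there. The PAC left out passed 5 TPM in 1 library only, namely TE-1 l-lactate for FEM1B and NR2C1 and the KYSE30 control for CPD. It entered the set by being high there, so the calls of these genes follow in part from how PACs were selected.

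CNOT6 encodes a deadenylase that shortens poly(A) tails. Its distal PAC had 50.5 TPM in the KYSE30 control and 42.4 with l-lactate, and 23.3 and 13.6 in TE-1. Its middle PAC had 40.1 and 54.4 TPM in KYSE30 and 16.5 and 28.8 in TE-1. The distal share was 51.3% and 39.4% in KYSE30, a difference of -11.9 points (95% Newcombe interval -16.8 to -6.84), and 47.9% and 26.6% in TE-1, a difference of -21.4 points (-27.2 to -15.2). All 3 of its PACs had AAUAAA within 50 nt.

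HS2ST1, a heparan sulfate sulfotransferase, had distal shares of 39.8% and 25.7% in the control and l-lactate libraries of KYSE30, and 45.7% and 29.7% in TE-1. The differences were -14.2 points (-19.1 to -9.16) and -15.9 points (-22.3 to -9.38). Its first middle PAC held 37.5% and 48.5% in KYSE30 and 29% and 48% in TE-1, higher with l-lactate in both, and its proximal PAC was unlisted in the TE-1 control. Over only the PACs listed in both TE-1 libraries the distal difference was -13.8 points.

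ENAH, an actin regulator, had distal shares of 42.2% and 29.7% in KYSE30 and 32.7% and 20.6% in TE-1. The differences were -12.5 points (-17.7 to -7.22) and -12 points (-16.8 to -7.19), and the middle PACs together were higher by 12.3 and 11.3 points. TMEM245, a membrane protein, had 69.5% and 53%, and 49% and 37.2%, with the proximal share higher in both. NSD2, a histone methyltransferase whose 4 PACs lie in separate 3′ UTR pieces, had 60.2% and 49.5%, and 62.2% and 50.3%, and its proximal PAC was unlisted in the KYSE30 control. Over only the PACs listed in both KYSE30 libraries the difference of NSD2 was -9.24 points.

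The other 2 genes with a lower distal share rested on fewer tags. FEM1B, a substrate receptor of a ubiquitin ligase, had summed TPM of 28.95, 27.73, 13.47 and 19.96, and its distal share was 82.8% and 65.3% in KYSE30 and 78.6% and 52.7% in TE-1. Its proximal PAC was not listed in either control, and over the PACs listed in both libraries compared the distal differences were -4.95 and -6.8 points, under 10 in both lines. PGM2L1 had distal shares of 72.1% and 60.1% in KYSE30 and 54.5% and 42.8% in TE-1.

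For NR2C1 the distal PAC had 3.35 TPM with l-lactate in KYSE30 and 5.43 in TE-1 and was not listed in either control. The share was therefore 13.3% and 18% with l-lactate, and with only the 2 PACs listed in both libraries the downstream one, otherwise the middle PAC, differed by -6.87 and -7.62 points instead. FASTKD2, a mitochondrial RNA-binding protein, had the same limit in TE-1, where its distal PAC was unlisted in the control. Its distal shares in KYSE30 were 14.4% and 24.1%, a difference of 9.68 points (0.998 to 18.2).

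N4BP2L2 and PAPOLA had all PACs listed. The distal share of N4BP2L2 was 16.4% and 24.3% in KYSE30, a difference of 7.85 points (1.99 to 13.9), and 11.1% and 22.8% in TE-1, a difference of 11.7 points (6.6 to 16.9). That of PAPOLA, the canonical poly(A) polymerase, was 72.4% and 79.1% in KYSE30, a difference of 6.73 points (2.56 to 10.9), and 73.1% and 84.3% in TE-1, a difference of 11.2 points (8.45 to 13.9). The PACs of PAPOLA lie in 3 separate 3′ UTR pieces. Those of N4BP2L2, and of ENAH, HS2ST1 and NR2C1 above, also lie in several pieces. The distal shares of these genes therefore compare sites in separate pieces and not only along an unbroken 3′ UTR. ANKLE2 differed by 7.5 (1.72 to 13.2) and 5.57 points (2.59 to 8.56).

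**Figure D3:**
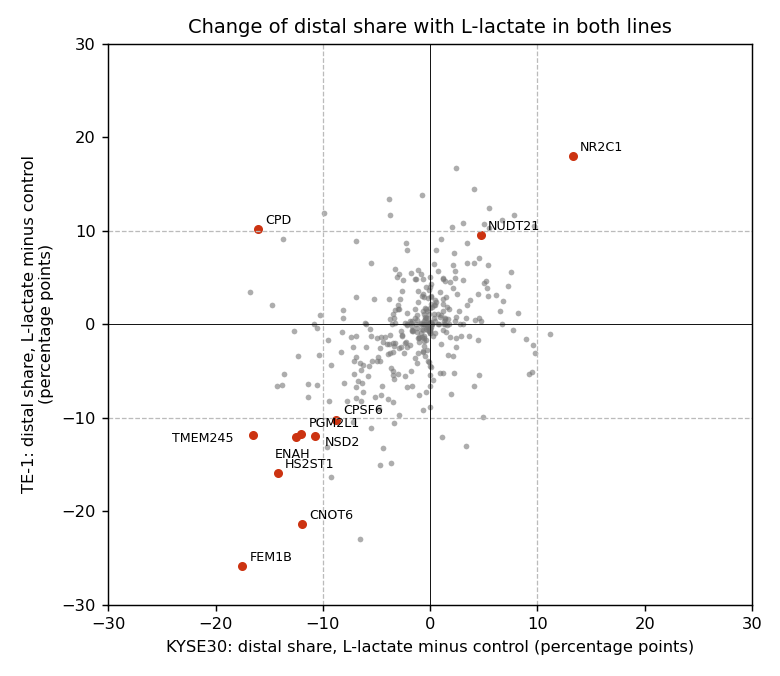
Change of the distal share with l-lactate (percentage points) in KYSE30 (x axis) and TE-1 (y axis) for the 357 genes with at least 10 TPM in all 4 libraries, 1 point per gene; dashed lines mark 10 points. Genes past 10 points in both lines, with NUDT21 and CPSF6, are in red; the 7 genes at the lower left have lower distal shares in both lines, NR2C1 a higher one.

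The 2 CFIm subunit genes among the members differed with l-lactate in opposite directions. NUDT21 had 45.5, 39.0, 67.1 and 55.6 TPM at its proximal PAC in the KYSE30 control, KYSE30 l-lactate, TE-1 control and TE-1 l-lactate libraries, and 34.9, 40.4, 22.5 and 30.9 at its distal PAC. The proximal share was 52% (48.2 to 55.8) and 43% (39.3 to 46.8) in KYSE30 and 66.8% (63.9 to 69.6) and 57.4% (54 to 60.8) in TE-1. The distal share was higher with l-lactate by 4.7 points in KYSE30 (-0.665 to 10, an interval that includes 0) and by 9.52 points in TE-1 (5.45 to 13.6). Its proximal and distal sites had UGUA upstream and its middle site had none.

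CPSF6 had 98.7, 143, 127 and 246 TPM at its proximal PAC in the same order and 37.6, 32.8, 33.1 and 28.2 at its distal PAC, while the middle PAC stayed at 5.9 TPM or below. The distal share differed by -8.76 points with l-lactate in KYSE30 (-12.2 to -5.32) and by -10.2 points in TE-1 (-12.5 to -7.97). The proximal PAC had more TPM with l-lactate in both lines. CPSF2, a subunit of the CPSF complex, had distal shares of 49.3% and 43.7% in KYSE30 and 42% and 40.7% in TE-1. RBBP6, which takes part in 3′ end cleavage, had 73.1% and 71.9%, and 60.5% and 61.5%.

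Of 357 members, 20 in KYSE30 and 29 in TE-1 differed in proximal share by at least 10 points. In genes with 2 PACs the proximal share is the rest of the distal one. It was at least 10 points higher in both lines in 9 of 1331 such genes (0.676%) and lower in 16 (1.2%). Among members the proximal share passed 10 points upward with l-lactate in both lines in FEM1B, HMGB1, IRF2BP2, NUP98 and TMEM245, and downward in ANKH and N4BP2L2. For FEM1B this rests on a proximal PAC unlisted in both controls. HMGB1, TMEM245 and N4BP2L2 had all their PACs listed in both libraries compared. The proximal differences of IRF2BP2 and NUP98 were unchanged over the PACs so listed. HMGB1 was measured on 3891 tags or more per library. Its proximal PAC had 287 TPM in the KYSE30 control and 323 with l-lactate, and 242 and 287 in TE-1, while its middle PAC had 407 and 286, and 296 and 168. The proximal share was 40.1% (38.8 to 41.4) and 52.3% (50.8 to 53.8) in KYSE30, and 44.3% (43 to 45.6) and 62.5% (60.9 to 64) in TE-1. IRF2BP2, a transcriptional corepressor, had proximal shares of 65.2% and 76.6% in KYSE30 and 65.7% and 79.5% in TE-1. NUP98, a nuclear pore protein, had 26.7% and 37.1%, and 34.7% and 45.7%. ANKH, a transporter, had 92.7% and 73.8%, and 82.5% and 69.9%, and its middle PAC was unlisted in the KYSE30 control. Its proximal difference of -18.9 points in KYSE30 was -9.63 over the PACs listed in both libraries. Over all 3′ UTR PACs of ANKH, those under the minimum included, the proximal differences were -0.444 and 0.746 points, under 10 in both lines. Positions were assigned anew in that set, so its proximal PAC can be another one than above.

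The middle share was higher by at least 10 points with l-lactate in both lines in ANKH, ENAH and YIPF4. Of 357 members, 19 in KYSE30 and 29 in TE-1 differed in middle share by that size in either direction. Genes with 2 PACs have no middle PAC to set beside these counts. YIPF4, a Golgi membrane protein, had 24.5 and 33.7 TPM at its middle PAC in KYSE30 and 20 and 31.2 in TE-1, while its proximal and distal PACs were both lower with l-lactate. Its middle share differed by 16.2 points (9.8 to 22.5) and 15.7 points (9.28 to 21.9), but by 7.62 and 3.14 points over all 3′ UTR PACs of the gene, under 10 in both lines. The middle share of ANKH likewise differed by 5.56 and -2.06 points over all its PACs, so ENAH alone of the 3 genes passed 10 points in both lines under that choice. Positions were assigned anew in that set, so the middle PACs of ANKH and YIPF4 can be others than above. HMGB1 and NR2C1 had middle shares lower by at least 10 points in both lines, which for NR2C1 became -6.87 and -7.62 points for the same PAC over those listed in both libraries.

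The leading PAC was another one with l-lactate in 29 of 374 genes in KYSE30 (7.75%) and 28 of 374 in TE-1 (7.49%). The new leading PAC lay upstream of the old one in 20 genes in each line and downstream in 9 and 8. In genes with 2 PACs the leading PAC differed in 4.81% and 6.09%, and the direction was not counted there, so the split in members has no background. HMGB1 was one of the members with another leading PAC in both lines, with its middle PAC leading in the controls and its proximal PAC with l-lactate.

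PAWR, a pro-apoptotic protein with 4 PACs, differed in distal share by 0.747 points in KYSE30 (-4.55 to 6.03) and 5.74 in TE-1 (2.33 to 9.25). BTF3L4 had 0.969 points in KYSE30 (-1.89 to 3.87), and its distal PAC was unlisted in the TE-1 control. In TE-1 it had 9.12 points. With only the PACs listed in both libraries the distal PAC was left out, and the last one, otherwise the middle PAC, differed by -2.42 points. Of the 7 members that regulate mRNA through the 3′ UTR, CNOT6 alone passed 10 points in both lines. AGO2, the slicer of the microRNA pathway, had distal shares of 85% and 80.6% in KYSE30 and 63.6% and 57% in TE-1.

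**Figure D4:**
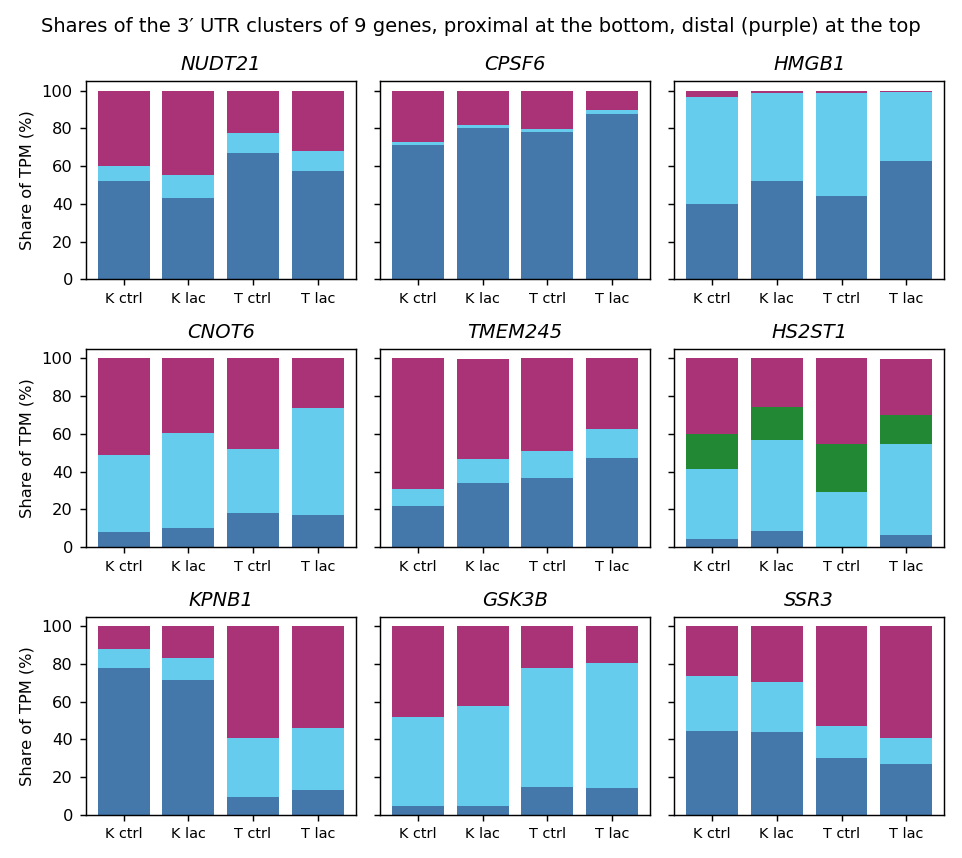
Share of TPM (%, y axis) of each 3′ UTR PAC of 9 genes in the control (ctrl) and l-lactate (lac) libraries of KYSE30 (K) and TE-1 (T), stacked from proximal (bottom) to distal (top, purple). NUDT21 and CPSF6 differ with l-lactate in opposite directions, HMGB1 has a higher proximal share with l-lactate in both lines, and KPNB1, GSK3B and SSR3 differ mainly between the lines.

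By the same count, the lines differed in more members than the treatments did within a line. Between the controls, usage moved by at least 10 points in 169 of 358 members (47.2%), against 32.6% of the 1717 genes with 2 or more PACs. Between the l-lactate libraries it moved in 172 of 360 members (47.8%), against 32% of 1739. The distal share was at least 10 points lower in TE-1 in 76 members in controls (21.2%, background 22.2%) and 73 with l-lactate (20.3%, background 19.2%). It was at least 10 points higher in TE-1 in 26 (7.26%, background 6.46%) and 35 (9.72%, background 9.09%). These shares of members were near the backgrounds. Of the 169 and 172 genes, 47 and 40 had a PAC listed in only 1 of the 2 libraries. Among the distal calls in controls, such a PAC belonged to 23 of the 76 lower and 10 of the 26 higher genes. With l-lactate it belonged to 17 of the 73 lower and 15 of the 35 higher genes. The leading PAC differed between the lines in 55 of 358 members in controls (15.4%) and 57 of 360 with l-lactate (15.8%), against 8.17% and 8.12% of genes with 2 PACs. The median difference in mean end position was -68 nt in controls (-93.7 to -53.2) and -48.5 nt with l-lactate (-71.3 to -26.8), with TE-1 the shorter. It was worked out for members only.

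KPNB1, the importin beta that carries proteins into the nucleus, showed the line difference at 3 sites within 1865 nt. These sites, and those of 3 other genes below, are shown because the same sites were used to different extents in the lines.
KPNB1 cluster 1 (proximal), chr17:47683610-47683639, plus strand: aaucuGAUAAAauaaccauuuggaaacugc
KPNB1 cluster 2 (middle), chr17:47684630-47684659, plus strand: cagcaggagAAUAAAguacaccgagaacca
KPNB1 cluster 3 (distal), chr17:47685475-47685504, plus strand: uaAAUAAAguccgcuuuauuuuuauuuuca
GSK3B cluster 1 (proximal), chr3:119826677-119826706, minus strand: aauAUUAAAaagagaaaaaaauccuguuca
GSK3B cluster 2 (middle), chr3:119821956-119821985, minus strand: aaaaaguagguuagccuggaAAUGAAauua
GSK3B cluster 3 (distal), chr3:119821321-119821350, minus strand: cugcuucAAUAAAaacaaauuuauauucga
SSR3 cluster 1 (proximal), chr3:156543006-156543035, minus strand: gauuguugaaAUUAAAugaauugaaaggga
SSR3 cluster 2 (middle), chr3:156541316-156541345, minus strand: uguaucaAAUAAAugcauuugcuuauuuga
SSR3 cluster 3 (distal), chr3:156540147-156540176, minus strand: uuaauaaguaugAUUAAAcuuugcuucuua
SPECC1 cluster 1 (proximal), chr17:20238855-20238884, plus strand: uuuaugaagugcaaAAUAAAcauguuauua
SPECC1 cluster 2 (middle), chr17:20239395-20239424, plus strand: auuuuuAAUAAAaauuggauuauauucuuu
SPECC1 cluster 3 (distal), chr17:20314724-20314753, plus strand: aAAUAAAcauuuguuccagggcaaccugga

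The proximal PAC of KPNB1 had 147 and 139 TPM in the KYSE30 control and l-lactate libraries and 5.1 and 8.15 in those of TE-1, while its distal PAC had 22.9, 32.5, 32.6 and 32.8. The distal share was 12.2% and 16.7% in KYSE30 and 59.5% and 54.1% in TE-1, a difference of 47.3 points in controls (42.9 to 51.6) and 37.4 with l-lactate (32.6 to 42). Both TE-1 libraries lay above both KYSE30 libraries. The genome after its middle site is rich in adenine, and that PAC held 9.72% to 32.5%.

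SSR3, a subunit of the endoplasmic reticulum translocon complex, had distal shares of 26.1% and 29.6% in KYSE30 and 52.8% and 59.4% in TE-1. DST, a cytoskeletal linker whose PACs lie in separate 3′ UTR pieces, had 14.9% and 11.3% in KYSE30 and 57% in both TE-1 libraries, and its main middle PAC had 268 and 291 TPM in KYSE30 and 4.81 and 5.08 in TE-1. CHMP2B, an ESCRT subunit, differed by 19.8 points in controls (13.6 to 25.8) and 19.7 with l-lactate (13.1 to 26.2). The distal PAC of SMARCE1, a chromatin remodelling subunit, had 39.7 and 46.6 TPM in TE-1 and was not listed in KYSE30, and the genome after it is rich in adenine. The line difference of its distal share was 24.9 points in controls and 28.9 with l-lactate. Over all 3′ UTR PACs of the gene another PAC, under the minimum, was the last, and its share differed by 2.01 and 0 points. Over the PACs listed in both libraries the last was the middle PAC, which differed by 1.3 and 5.46 points. Neither pair of values is for the distal PAC itself.

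In the other direction, GSK3B, a signalling kinase, had distal shares of 48.2% and 42.2% in KYSE30 and 22% and 19.5% in TE-1, differences of -26.3 points (-31.3 to -21) and -22.7 points (-28.1 to -17.2). SPECC1 had 67.8% and 64.9%, and 36% and 26.2%. MEF2D, a transcription factor, had 62.4% and 59.1%, and 29.4% and 30.1%. TNKS, a tankyrase, differed by -29.2 points in controls (-36.9 to -20.9) and -24 with l-lactate (-31.9 to -15.5). RCOR3, a corepressor, differed by -25.6 (-33.1 to -17.6) and -23.6 points (-31.3 to -15.4). In all 5 genes both TE-1 libraries lay below both KYSE30 libraries. The PACs of SPECC1 and RCOR3, and those of SMARCE1 above, lie in several 3′ UTR pieces.

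EGFR, the epidermal growth factor receptor, had much more TPM in KYSE30 with a similar division among its 4 PACs, which lie in several 3′ UTR pieces. Its distal PAC had 586 and 599 TPM in KYSE30 and 89.4 and 106 in TE-1, and the distal share was 68% and 69.2%, and 70.8% and 75.8%. Of the 8 PACs of HAPSTR1, clusters 1 to 5 had higher shares and clusters 6 to 8 lower shares in both TE-1 libraries than in both KYSE30 libraries. Its cluster 4 held 19.2% and 22.6% in KYSE30 and 25.3% and 30.1% in TE-1, whereas cluster 7 held 35.4% and 35.8%, and 20.8% and 16.6%.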

How the data were processed

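PAS-seq was done on 4 libraries, 1 per group. According to the study's methods, reads were trimmed with FASTX-Toolkit and aligned to GRCh38 with HISAT2, sites were called with CAGEr, sites within 24 nt were clustered into PACs, and PACs within 500 nt were joined. The deposited TPM values, which are RPM as the authors made them (tags scaled to the library's total), carry no length correction. The files list no PAC at TPM under about 1, so an unlisted PAC is not a true zero. Whole tags were recovered from the steps between values, 100% of which lay within 0.001 TPM of a whole tag, giving 7174991, 7425554, 8468958 and 10393799 tags for KYSE30 l-lactate, KYSE30 control, TE-1 l-lactate and TE-1 control. The cell line field of both controls names another line (KYSE32 and TE-3) than their titles, which were followed. Dose and time are from the study's methods.

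PACs were assigned by their dominant site to GENCODE 44 3′ UTRs of 1 protein-coding gene on the same strand, and 27 PACs in the 3′ UTRs of several genes were given to none. Genes with summed TPM under 10 in a library compared were left out. Signals were AAUAAA, then AUUAAA, then the variants AGUAAA or UAUAAA or CAUAAA or GAUAAA or AAUAUA or AAUACA or AAUAGA or ACUAAA or AAGAAA or AAUGAA, searched on the sense strand within 50 nt upstream, each PAC counted once under the first found. A call is a change of 10 percentage points, with no test, since each group holds 1 library. Wilson and Newcombe intervals at 95% cover counting error only. Genes were named by fixed rules: most PACs, most TPM, largest changes of distal or middle share in the same direction in both lines, largest line differences in both treatments, longest spans, highest TPM in each list, and genes the study followed. FEM1B, PGM2L1, CPD, IRF2BP2, NUP98, ANKH, CPSF2, RBBP6 and VCPIP1 were named after their values were seen. The results of 1 gene and 1 gene list are not reported here. Members and lists were chosen with earlier results of these data known. Calculations were tested on simulated tags. Tools were pysam 0.24.0, SciPy 1.17.1, matplotlib 3.10.9 and pandas 2.3.3 under Python 3.11.15.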

Additional observations from a re-analysis of the deposited data

Results flagged for a closer look

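The distal share of CPD moved in opposite directions in the lines, by -16 points with l-lactate in KYSE30 and by 10.2 points in TE-1. Its distal PAC was unlisted in the KYSE30 l-lactate library and in that of the TE-1 control, and took 16% (12 to 20.9) of 263 tags and 10.2% (7.03 to 14.5) of 256 tags in the other two, so the line difference was also -16 points in controls and 10.2 points with l-lactate. The proximal share of VCPIP1, a deubiquitinase, was lower in TE-1 than in KYSE30 by 20.6 points in controls (-20.6 as a signed difference) and higher by 16 points with l-lactate. In the TE-1 control its proximal PAC was unlisted, and it took 30.7% (23 to 39.7) of 114 tags in the TE-1 l-lactate library. The distal PAC of CPD and the proximal PAC of VCPIP1 passed 5 TPM only in the KYSE30 control, so they entered the set by being high there. Both genes are given because the difference took opposite signs in the pairs of libraries compared. With 1 library per group these differences were not tested.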

How the results depend on the processing

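Of 135 values of summary results under other settings, 97 stayed close to those reported and 38 moved. A change of direction was not scored for these summaries. The number of genes with 3 or more PACs was 629 at a minimum TPM of 3, 155 at 10, and 138 when each PAC had to pass 5 TPM in all 4 libraries. At a minimum of 10 the median proximal share was 33.5% in the KYSE30 l-lactate library, 32.1% in its control, 32.4% in TE-1 with l-lactate and 32.6% in its control, and it was 27.7% in the KYSE30 control over unbroken 3′ UTRs alone. At 5 points, genes with distal share higher, lower, or usage moved numbered 30, 70 and 178 for l-lactate in KYSE30, 44, 72 and 200 in TE-1, 60, 139 and 278 between the controls, and 67, 120 and 269 between the l-lactate libraries. At 20 points they numbered 0, 1 and 1, then 0, 4 and 5, then 8, 15 and 52, then 8, 13 and 50. Counting AUUAAA with AAUAAA gave 71.1%, 78.2% and 90.3% of proximal, middle and distal PACs, and UGUA within 50 nt stood at 33.5%, 32.8% and 34.8%, a smaller difference between proximal and distal than within 100 nt. With only PACs listed in both libraries, the distal PAC of NR2C1 and, in TE-1, that of BTF3L4 were left out, and the middle PAC became the last. The share of that last PAC differed by -6.87 points in KYSE30 and -7.62 in TE-1 for NR2C1. For BTF3L4 in TE-1 it differed by -2.42 points. The distal PAC of BTF3L4 differed by 9.12 points as reported, under the size of a call. The values over other sets of PACs for genes past 10 points in both lines were added after seeing the data. Requiring Fisher's exact test on tags as well, which compares libraries and not conditions, left 3 higher and 19 lower genes in KYSE30, and 14 and 21 in TE-1. Leaving out PACs followed by A-rich genome, a setting chosen after seeing the data, gave 3 and 24, and 18 and 23. For single genes, 109 of 120 values stayed close, 9 moved and 2 called values reversed (both NR2C1). Many of the 109 could not move, because the other setting held the same PACs. Of the 9, BTF3L4 also changed sign, and the others were of YIPF4, SMARCE1 and the middle share of NR2C1. The values of opposite sign belong to another PAC than the distal one reported. No paired analysis was possible because each group holds 1 library and the labels give no replicate numbers, and no replicate could be left out for the same reason. The joining of PACs within 500 nt, the missing replicates and the minimum below which PACs were not listed limit every comparison, since a PAC near that minimum can be listed in one library and not in another.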
